A study of Rattus norvegicus with 40 samples.

Results

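Adrenal glands of adult male Sprague Dawley rats given the highest of 3 doses of an organophosphate ester mixture were compared with those of control males. The comparison uses 10 of the 40 libraries of the series, 5 labelled Male Control and 5 labelled Male M30000x, chosen by the sex and dose in the labels. The other 30 libraries are males at 30x and 1000x and females that were controls or received one of the 3 doses. The Sprague Dawley rat is an outbred laboratory stock, so that animals of a group differ in their genes. The labels name neither the chemicals in the mixture nor the amount behind a multiple, and give no age beyond adult. Replicates are labelled as biological, without an animal being named, so the p-values measure the spread between these libraries.

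Organophosphate esters are added to plastics, foams and fabrics as flame retardants and plasticizers. The adrenal gland has an outer cortex, which makes corticosteroids such as corticosterone and aldosterone from cholesterol, and an inner medulla, whose chromaffin cells release catecholamines. Steroid output follows pituitary corticotropin and angiotensin, and it varies with the time of day and with acute stress.

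The files list genes by Ensembl identifier alone. Of the 32545 identifiers, 0 matched any of the 47357 rows of the RefSeq gene table used here (assembly GRCr8). The 27 lists of adrenal pathways and cell type markers that had been drawn up by symbol could therefore not be used. The tissue label was for the same reason not checked against markers of cortex, medulla, fat or blood. The results below describe genes by identifier, rank, level and recovered length, without a function. In whole glands, fewer cells of a type and less RNA per cell cannot be told apart.

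The 10 libraries held 14221961 to 21032832 recovered reads. The 10 genes with the most reads in the series took 20.4 ± 1.65% of reads in controls and 19.1 ± 2.83% at 30000x (SD, n = 5 each), with ranges of 19% to 22.8% and 15.7% to 22.7%. The number of genes at 1 FPKM (fragments per kilobase, scaled by library size factors) or more was 12204 to 12507 in controls and 12272 to 12603 at 30000x. The groups overlapped in each of these measures. Pearson's r between 2 libraries over the genes tested was 0.946 to 0.976 within controls, 0.963 to 0.975 within 30000x and 0.947 to 0.975 between the groups. The range between groups thus lay within the range among controls and overlapped that at 30000x.

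A gene was tested if it reached 1 FPKM in at least 5 of the 10 libraries, which left 12440 genes, and 10953 of them reached 1 FPKM in all 10. At the edge of this filter, 284 genes reached 1 FPKM in exactly 5 libraries and were tested, and 269 reached it in exactly 4 and were not. Only 2 genes passed through 1 group alone, 1 with all 5 controls and 1 with all 5 libraries at 30000x above 1 FPKM and none of the other group. All differences below are 30000x minus control on log2(FPKM + 1), a scale that understates the change of low genes.

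Most genes lay close to their control level. The median difference over all genes tested was -0.0076, the 5th and 95th percentiles were -0.34 and 0.33, and the 1st and 99th were -0.70 and 0.59. The median size of a difference was 0.12, against a median standard deviation (SD) within groups of 0.23. For 82.7% of genes the difference was smaller than the SD within groups, and for 120 genes (0.965%) it was more than 2 times that SD. A difference of at least 1 was seen for 25 rises (0.201% of genes tested) and 42 falls (0.338%). The 95% interval of a difference had a median half-width of 0.29, and it was narrower than ±0.5 for 85.2% of genes.

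**Figure D1:**
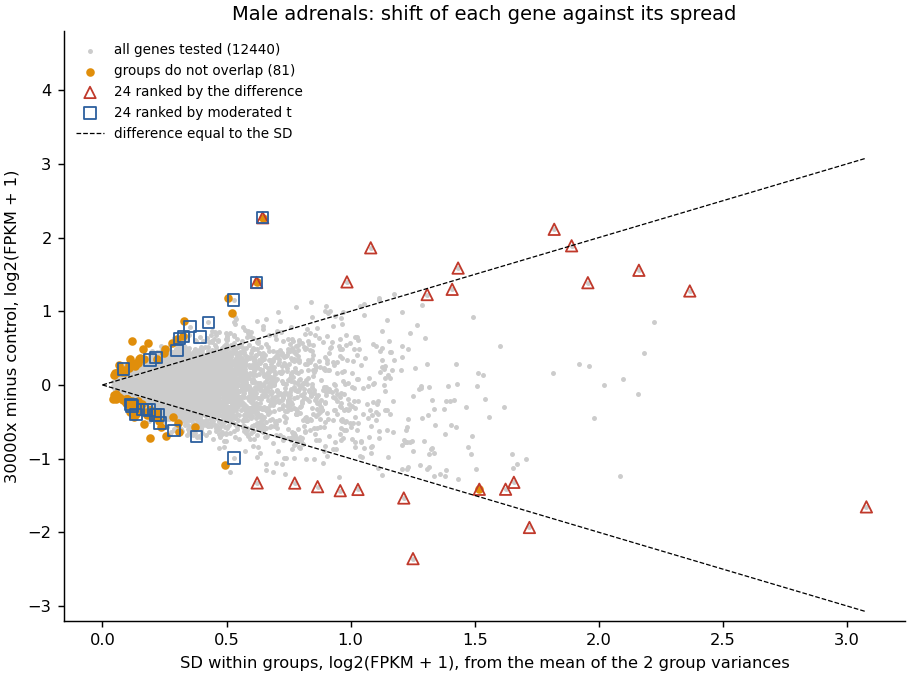
Each point is 1 of the 12440 genes tested, with the SD within groups on the x axis and the difference between 30000x and control males on the y axis, both on log2(FPKM + 1). Dashed lines mark a difference equal to the SD, orange points are the 81 genes whose groups do not overlap, triangles are the 24 genes ranked by the difference and squares the 24 ranked by moderated t. The triangles spread to the right, where genes vary most among animals of a group. Most squares sit to the left of the triangles, at a smaller SD.

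In the test across all genes, 1 gene was higher at 30000x (0.00804% of 12440) and 0 were lower, by limma with Benjamini-Hochberg adjustment at an adjusted p under 0.05. After that gene the lowest limma adjusted p was 0.753. At an unadjusted p under 0.05 there were 746 genes, 322 higher (2.59%) and 424 lower (3.41%), where 622 are expected for independent genes without any effect. With voom on the recovered reads 0 genes passed and 790 were at an unadjusted p under 0.05.

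The gene that passed, ENSRNOG00000055501, is a short and weakly read transcript with a recovered length of 94 bp, the shortest length that makes its reads whole. It was at 0, 0, 2.26, 0 and 0 FPKM in male control replicates 1 to 5, and at 5.89, 5.94, 8.51, 2.95 and 3.72 FPKM in male 30000x replicates 1 to 5. In reads these are 0, 0, 4, 0 and 0 against 11, 9, 18, 6 and 6. Every library at 30000x lay above every control, and the control that held reads was replicate 3. The gene therefore passed the filter through the 5 libraries at 30000x, where it is high, and control replicate 3. The difference of 2.27 (SE 0.34) passed, with a limma adjusted p = 0.028. The mean was 1.45 ± 0.680 FPKM in males at 30x (SD, n = 5) and 1.81 ± 1.2 FPKM in males at 1000x (SD, n = 5). The call was lost in 6 of the 9 other settings in which the gene could be tested (limma adjusted p 0.021 to 0.613 over the 9), and in 8 of the 10 fits that left out a single library.

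ENSRNOG00000021507 (906 bp) had the next largest rise in relation to its spread among genes at 5 FPKM or more. Controls 1 to 5 were at 7.29, 1.61, 1.64, 2.48 and 6.98 FPKM, and the libraries at 30000x were at 7.39, 10.5, 12.7, 11.3 and 11.1 FPKM. The groups did not overlap, although control 1 and 30000x replicate 1 were nearly level. The difference of 1.39 (SE 0.35) did not pass (limma adjusted p = 0.753). Beside 4.00 ± 2.89 FPKM in the controls, which these comparisons share, the mean was 10.2 ± 5.06 FPKM in males at 30x and 8.29 ± 2.68 FPKM in males given 1000x (SD, n = 5).

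ENSRNOG00000019848 (2671 bp) had the largest negative difference among genes at 5 FPKM or more. It was at 60.2, 3.66, 11.4, 26.2 and 55.7 FPKM in controls 1 to 5, and at 2.24, 10.9, 2.71, 2.48 and 2.09 FPKM at 30000x. Controls 1, 4 and 5 stood high and control 2 lay within the range at 30000x. The difference of -2.36 (SE 0.83) did not pass (limma adjusted p = 0.753). Males given 1000x spanned 2.69 to 74.8 FPKM, more than the controls, and males given 30x spanned 2.66 to 14.7 FPKM.

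ENSRNOG00000007329 (4623 bp) had the most negative moderated t among genes at 5 FPKM or more. Controls were at 30.9, 22.2, 19.7, 28.2 and 21.8 FPKM and libraries at 30000x at 14.6, 14.7, 18, 16.1 and 20.4 FPKM. The groups overlapped only through control 3 and 30000x replicate 5, and the highest libraries were controls 1 and 4. The difference of -0.51 (SE 0.12) did not pass (limma adjusted p = 0.753), and it was -0.33 with controls 1 and 4 left out. Its mean was 16.7 ± 0.890 FPKM in males given 30x and 19.4 ± 2.95 FPKM in males given 1000x (SD, n = 5), beside the same 5 controls.

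**Figure D2:**
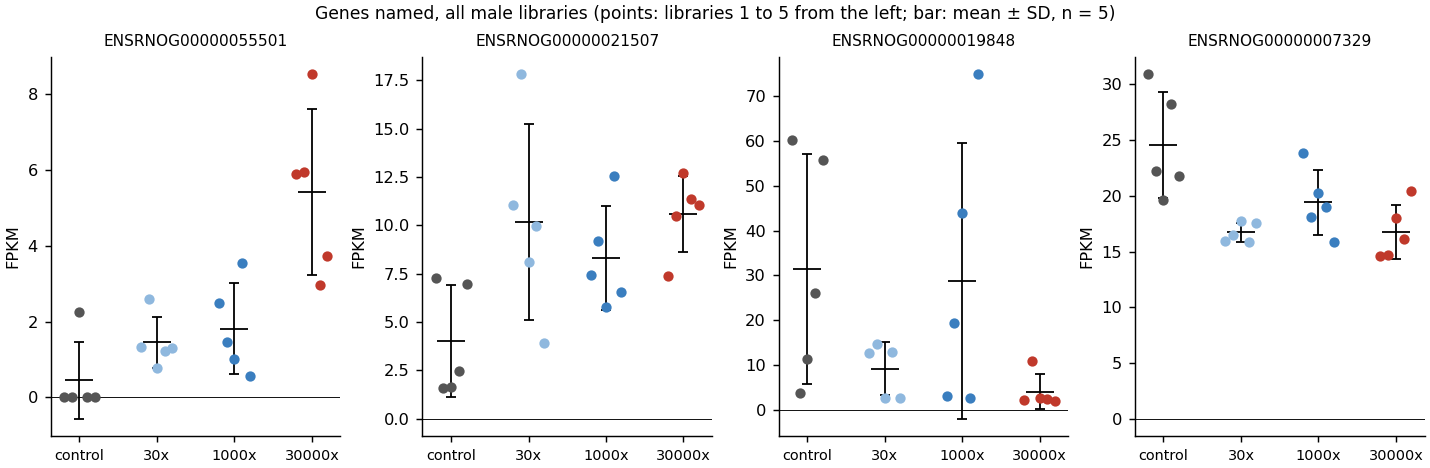
FPKM of the 4 genes named, on linear axes, in each of the 20 male libraries by dose group. Points are libraries, and bars give the mean ± SD (n = 5). ENSRNOG00000055501 and ENSRNOG00000021507 are separated between control and 30000x, ENSRNOG00000019848 varies widely among the controls and at 1000x, and ENSRNOG00000007329 overlaps in 1 library of each group.

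The rankings by size of the difference and by moderated t gave mostly different genes. Ranking was limited to the 8967 genes whose mean reached 5 FPKM in either group. The 12 largest rises by difference and the 12 largest positive moderated t shared 2 genes, and the corresponding falls shared 0. The 12 rises by difference ran from 1.23 to 2.27, with an SE of 0.34 to 1.43, and those by t from 0.22 to 2.27, with an SE of 0.067 to 0.35. The 12 falls by difference ran from -1.32 to -2.36 and those by t from -0.26 to -0.99.

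Among the 12 rises by difference, 7 genes were both under 1 FPKM and at 10 FPKM or more among the 5 libraries of a single group. The share of such genes over all genes tested was not counted, so the 7 are a description. In 2 of the 12 rises the groups did not overlap, beside 0.257% of all genes tested with separate groups and higher values at 30000x. The 12 rises were ranked on these same values, which favours separate groups, so the count of 2 is a description. The ninth of these rises (1742 bp) was at 0.0824 FPKM in control 1 and at 37.5 to 90.4 FPKM in every other library, so that a single control carried its difference of 1.39. Without that control the difference was 0.17. The second rise (643 bp) was at 0.165 to 2.42 FPKM in controls 1 to 4 but at 27.6 FPKM in control 5, and at 18.1 to 23.8 FPKM at 30000x except 0.553 FPKM in replicate 3. Its difference of 2.11 had an SE of 1.17. The fourth rise (1519 bp) was the most abundant of the 12. It stood at 120 to 141 FPKM in 4 controls and 544 FPKM in control 4, and at 169 FPKM in 30000x replicate 2 and 515 to 1355 FPKM in the other 4. This difference of 1.86 (SE 0.61) had a limma adjusted p of 0.753.

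**Figure D3:**
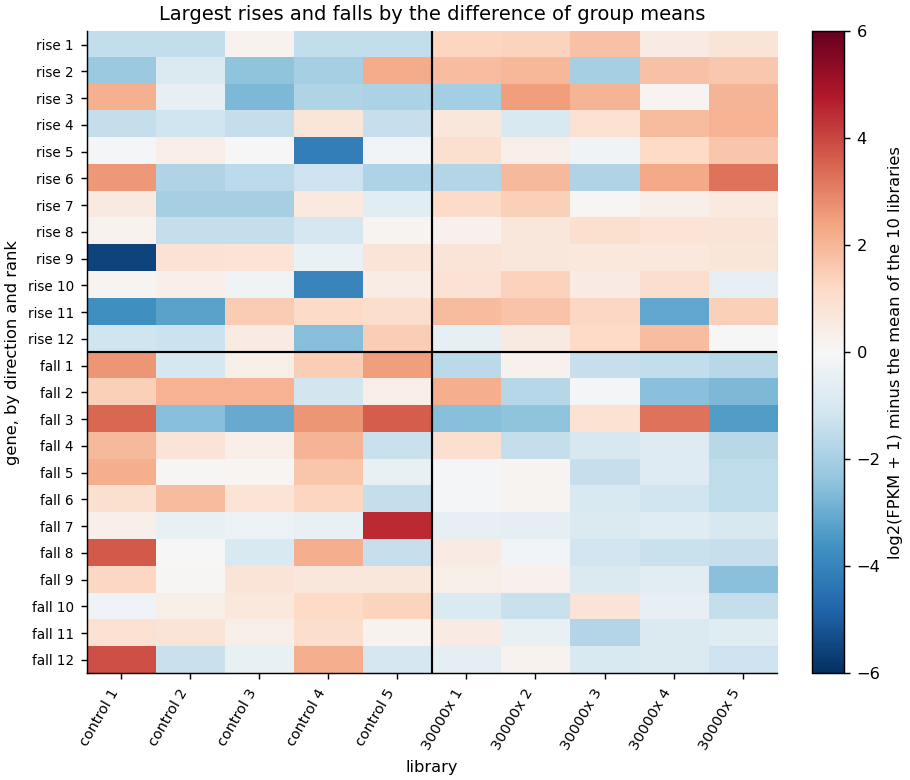
Heat map of the 12 largest rises and 12 largest falls by difference (rows, by rank) in the 10 libraries (columns). Colour gives log2(FPKM + 1) minus the mean of the 10 libraries, red above and blue below. The eighth and twelfth falls are reddest in control 1 and control 4, and the single dark blue cell of the ninth rise is control 1.

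In 7 of the 12 falls by difference the highest library was control 1 or control 4, as it was in 8 of the 12 falls by t. The lowest library was 30000x replicate 5 in 9 of the 12 falls by difference and in 0 of the 12 falls by t. Over all genes tested, control 1 or control 4 was highest in 19.3%, and 30000x replicate 5 was lowest in 8.52%. Genes ranked for a fall have high controls and low libraries at 30000x through the ranking itself, so these counts are a description. The eighth fall (3199 bp) was at 198 FPKM in control 1 and 69.1 FPKM in control 4, but at 5.06 to 14.5 FPKM in the other 3 controls and 5.06 to 21.3 FPKM at 30000x. The twelfth (3375 bp) was at 189 and 57.7 FPKM in the same 2 controls, 4.13 to 8.46 FPKM in the other 3 and 4.38 to 14 FPKM at 30000x. The seventh (1497 bp) was 66.0 FPKM in control 5 and 1.17 to 2.62 FPKM in the other controls, against 0.545 to 1.14 FPKM at 30000x. Its groups did not overlap, yet without control 5 the difference shrank from -1.42 to -0.47.

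With controls 1 and 4 both left out, a step chosen after seeing the data, 4 of the 11 falls that could still be tested were reduced to less than 0.5 times their size, and 2 of these changed sign. Of the rises by difference, 4 of 11 were reduced to less than 0.5 times their size and 1 of these changed sign. The median of the falls went from -1.42 for all 12 to -1.14 for the 11, and that of the rises from 1.48 to 1.40. The 12 falls and the 12 rises by t kept their sign and at least 0.5 times their size, with a median of the falls of -0.40 for all libraries and -0.37 without the 2 controls.

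Control replicates 1 and 4 also stood apart over many genes. They were the most alike of the 45 pairs of libraries (r = 0.976). The first principal component of the 10 libraries held 23.9% of the variance and set control 2 apart, at a score of 40.9 against -20.2 to 14.1 for the other 9. The second held 20.9% and set controls 1 and 4 apart, at scores of 35.8 and 25.6 against -20.1 to 2.00. On both components the libraries at 30000x overlapped the controls.

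**Figure D4:**
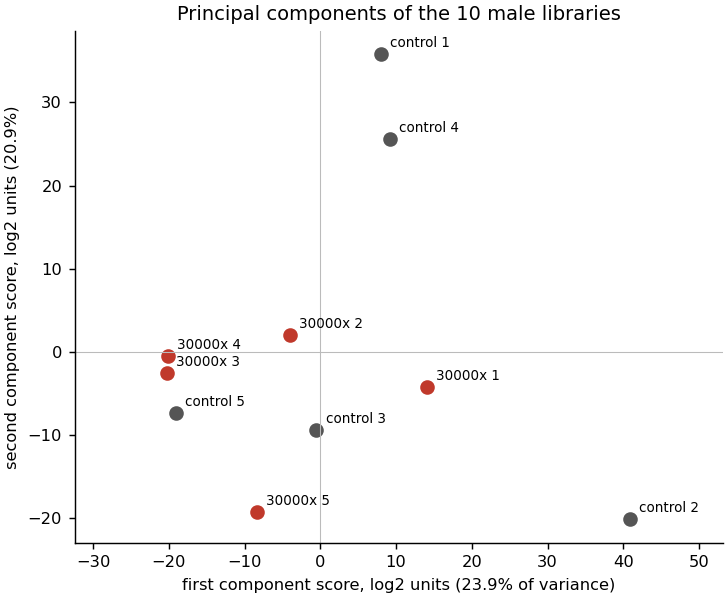
Scores of the 10 male libraries on the first (x axis) and second (y axis) principal components of log2(FPKM + 1) over the genes tested. Grey points are controls and red points 30000x, numbered by replicate. Control 2 stands at the right, controls 1 and 4 at the top, and the 5 libraries at 30000x lie below controls 1 and 4 and to the left of control 2.

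Of the 50 genes with the largest weight on the second component, 45 were high in controls 1 and 4, and 6 of the 12 falls by difference were among the 50. These genes were picked from the same values, so no test is given. Over the 45, the median deviation from the mean of the 10 libraries was 2.35 in control 1 and 1.66 in control 4, and -0.94 to -0.54 in the other 3 controls. At 30000x it was -1.31 to 0.51. Libraries at the other doses did not enter the choice: at 30x the median deviation was -1.20 to -0.38, and at 1000x it was 0.91 in replicate 1, 1.17 in replicate 3 and -0.75 to -0.078 in the other 3. High levels of these genes were thus seen in 2 controls and 2 males at 1000x, and the highest library at 30000x was replicate 2. The cause was not tested.

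**Figure D5:**
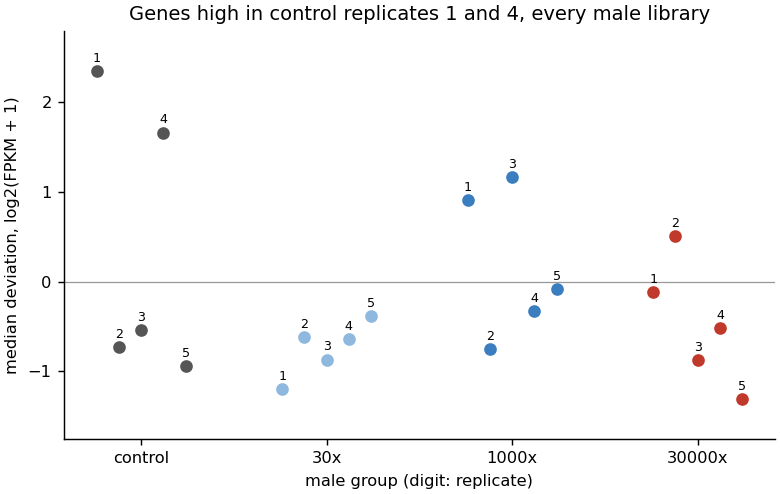
Median deviation on log2(FPKM + 1) of the 45 genes high in control replicates 1 and 4, for each of the 20 male libraries by dose group, with replicate numbers above the points. Controls 1 and 4 stand at 2.35 and 1.66, 1000x replicates 1 and 3 at 0.91 and 1.17, and every library at 30x lies below 0.

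Of the 12 falls by t, 5 had groups that did not overlap. Over all genes tested, 0.394% had separate groups and lower values at 30000x. Ranking by t on the same values favours separate groups, so the count of 5 is a description. All 12 limma adjusted p were 0.753. The fifth of these falls (3564 bp) was at 55.5 to 68.9 FPKM in controls and 44.7 to 54.6 FPKM at 30000x, a difference of -0.26 (SE 0.072). The eighth (2077 bp) was at 144 to 221 FPKM in controls and 104.3 to 137 FPKM at 30000x, a difference of -0.41 (SE 0.11). The sixth rise by t (1434 bp) was at 6.56 to 9.31 FPKM in controls and at 18.8 to 27.5 FPKM in 4 libraries at 30000x. The remaining library, 30000x replicate 1, was at 7.30 FPKM, within the controls. Its difference of 1.15 (SE 0.35) did not pass (limma adjusted p = 0.753), and the mean was 10.3 FPKM both in males given 30x and in males given 1000x.

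Over all genes tested, 81 (0.651%) had groups that did not overlap. A random order of 10 libraries would separate 2 groups of 5 in a share of genes no smaller than this. The 81 are therefore not an excess and are not taken as genes that respond. The 32 with higher values at 30000x had a median difference of 0.35 and a median gap between the nearest libraries of 0.032. The 49 with lower values had a median difference of -0.30 and a median gap of 0.039. The separation was therefore narrow for most of them, and 62 were at an unadjusted p under 0.05.

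The same 81 genes were read in females, whose controls are other animals. Of the 31 higher genes tested in females, 9 were higher at 30000x than in female controls (29%), with a median female difference of -0.12. Of the 48 lower genes tested in females, 24 were higher at 30000x (50%), with a median of 0.014. Over the 12063 genes tested in both sexes, 48.5% were higher in females at 30000x, with a median of -0.0094. Females given 30000x were tested against female controls by limma, and 0 of 12440 genes passed, while 1258 (10.1%) were at an unadjusted p under 0.05. An interaction of sex and exposure was tested for each gene, and limma called 0 of 12440, with 1683 (13.5%) at an unadjusted p under 0.05. For independent genes without any effect 622 are expected in either test. With single libraries left out the 2 counts ran from 738 to 1749 and from 1161 to 2297. With voom 0 passed in either test, with 1194 and 1662 at an unadjusted p under 0.05. ENSRNOG00000055501 lay under the filter in females, and its interaction was 2.90 (SE 0.63, limma adjusted p = 0.297). For ENSRNOG00000021507 the change was -0.24 (SE 0.50) in females, and the difference between the sexes of 1.63 did not pass (SE 0.64, limma adjusted p = 0.311). For ENSRNOG00000007329 it was 0.024 (SE 0.13) in females, a difference between the sexes of -0.54 (SE 0.18, limma adjusted p = 0.297). For ENSRNOG00000019848 the female change was -0.37 (SE 0.79) and the difference between the sexes -1.99 (SE 1.19, limma adjusted p = 0.438). The genes named were ranked on the same male values that enter these differences between the sexes. That ranking favours large differences, so they are a description.

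Differences moved with the level of expression. The median difference was 0.043 over 3688 genes under 5 FPKM, 0.018 over 4874 genes at 5 to 20 FPKM, -0.050 over 3171 genes at 20 to 100 FPKM and -0.12 over 707 genes above 100 FPKM. Scaling to library totals moved the median of all genes to 0.097, and quantile normalization to 0.0094.

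The spread of the 2 groups also differed in the median. The median SD over genes was 0.24 in controls and 0.20 in each of the 3 dosed groups, and 62.2% of genes varied more among controls than at 30000x. This rested on control 2: without it the median SD of controls was 0.19 and 46.0% of genes varied more among controls. Without any other single library of the 10 the share was 59.5% to 66.7%.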

How the data were processed

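The submitters' processing notes name HISAT2 2.0.5 (an aligner) and featureCounts 1.5.0-p3 (a read counter) for these adrenal RNA libraries. For build and annotation, nothing is given in the sources used here. Values were deposited by the authors as FPKM, with 1 table per library. For 20717 genes with values in at least 3 libraries, 100.0% of 680244 values lay within 0.05 of a whole read once library scales and gene lengths were solved, and the scales equalled median-of-ratios size factors. Total reads over the series ran from 13527205 to 23838651.

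Values were tested as log2(FPKM + 1) by limma 3.58.1 (R 4.3.3; trended prior, two-sided) in a fit of the 20 male libraries, with Benjamini-Hochberg adjustment over all genes tested. Females were tested in a fit of the 20 female libraries. The interaction came from a fit of all 40 libraries, with 1 spread per gene shared by both sexes. The median SD within groups was 0.30 in females and 0.23 in males. Python 3.11.15, pandas 2.3.3 and scipy 1.17.1 were used for the other steps. The limma fit was tested on simulated data. Chi-square per degree of freedom between replicates was 23.3 to 85.2, so that no pair was counted as 1 sample.

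Genes described are those called and, at a mean of 5 FPKM or more in a group, the 12 largest rises and falls by difference and by moderated t. At most 2 identifiers per direction are printed, the first of each ranking or the next by t, and this choice, like that of the other ranked genes described without identifier, was made after their values were seen. The comparison, the rule and the lists were chosen with earlier results of these data known. Gene lists and cell type markers were not tested, since 0 identifiers matched a name.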

Additional observations from a re-analysis of the deposited data

Results flagged for a closer look

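Among 24 groups of 5 values examined, 2 held a library far from the others, where chance gives about 1 in 20 groups. ENSRNOG00000055501 was at 2.26 FPKM in male control replicate 3 and at 0 in the other 4 controls. With the other 4 at 0, any reads in replicate 3 set it apart, so the rate of 1 in 20 does not apply. ENSRNOG00000019848 was at 10.9 FPKM in male 30000x replicate 2 and at 2.09 to 2.71 FPKM in the other 4 libraries at that dose. The cause was not tested for either.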

How the results depend on the processing

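The count of 1 gene called in males was 1 with a pseudocount of 0.1, with quantile normalization and with scaling to library totals. It was 0 with no filter on low values, with a mean of at least 5 FPKM (which removes the gene), in a fit of the 10 libraries compared, with library weights, with voom on the recovered reads, and with male controls 1 and 4 left out. The cause was not tested, except for the filter that removes the gene. With single libraries left out the count ran from 0 to 1, and it was 1 without male control replicate 3 or male 30000x replicate 4. For ENSRNOG00000055501 the difference was 2.11 to 2.61 in these fits, with a limma adjusted p of 3.8e-04 to 0.152. The lowest was without male control replicate 3. There every control left was at 0 FPKM, and the gene passed the filter through libraries at 30000x alone. The other 3 genes named kept their direction and did not pass in any setting. In males a limma unadjusted p under 0.05 was reached by 477 to 1282 genes with single libraries left out. In the other settings it was reached by 536 to 1194 genes in males and 852 to 2253 in females. For the interaction of sex and exposure the other settings gave 1215 to 3366. The count of 0 in females and the count of 0 for the interaction of sex and exposure were 0 in 9 other settings each, and 0 to 1 with single libraries left out (1 without female control replicate 3, and 1 without female 30000x replicate 1). With the replicate block the male count was 0. Deviations of same-numbered libraries had r of 0.0026 to 0.116, over 0.1 in 1 of 5 pairs, and 0 of 5 controls correlated best with their own number, so the numbers were not taken to pair animals. The alternative for gene lists was not run, since no names matched. In the male control and 30000x libraries ENSRNOG00000055501 rests on 18 reads or fewer each.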
